A study of Mus musculus with 2 samples.

Results

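Heat shock proteins and the chaperones that work with them were compared between 2 differentiated cultures from mouse fat, one of small proliferative adipocytes (SPAD) and one of stromal vascular cells (SVCD). The members are 54 genes listed by function, with earlier results of these data known, and matched to array probes through RefSeq transcript accessions. Of these, 52 were matched, on 72 probes, out of 20884 genes named on the array, while Hspa1b and Dnajb5 are not analysed here. Most members act in the cytosol, although Hspa9, Hspd1 and Hspe1 encode mitochondrial chaperones and Hspa13 a microsomal Hsp70 relative. SPAD were cultured from cells that sedimented in a second spin of the floating fraction of collagenase-digested epididymal fat, and SVCD from the cells below that fraction, in both cases from male C57/BL mice. Both cultures grew in DMEM to 90% confluency, spent 3 days with insulin, dexamethasone and IBMX, the usual inducers of fat cell differentiation, and a further 2 days in DMEM alone. Sample titles call both cultures differentiated, while the sample descriptions name them SPA and SVC, and the titles were followed. Ages and numbers of animals or cultures are not given in the sources used here. Total RNA of each culture, 30 ng, was labelled with Cy3 and hybridised to 1 single-colour Agilent array.

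Heat shock proteins keep other proteins folded. Hsp70 proteins bind exposed stretches of unfolded clients in a cycle driven by ATP, J proteins deliver the clients and start the cycle, and Hsp110 and Bag proteins end it by exchanging the nucleotide. Hsp90 then finishes kinases and steroid receptors with the help of cochaperones, small heat shock proteins hold aggregating clients without using ATP, and the chaperonins enclose a client in a chamber. When unfolded protein builds up, heat shock factor 1 binds heat shock elements in the promoters of the inducible members and raises their transcription.

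Values are processed signal intensities, given for each array before any difference. A log2 difference is the SPAD minus the SVCD log2 signal after each array was scaled to its own 75th percentile (a signal of 622 in SPAD and 678 in SVCD). A log2 difference of 1 is 2-fold. The quoted error is the spot error, taken from probes printed 10 times on each array: its median over the members was 0.08, and it reached 0.50 where both signals were dim. It covers spot-to-spot scatter only. With 1 array per group there is no spread between samples and no test, so replicates check none of the differences given here, and a size of 2-fold stands in for a call. Signals of different probes are not comparable as levels. In mixed cultures, fewer cells of a type and less RNA per cell cannot be told apart.

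On both arrays, 49 members were well above background. Ahsa2 was so on the SPAD array alone, and Hspa12a and Hspb3 were not on either array, with signals of at most 10.1. Of these 50 detected members, 14 (28.0%) were higher in SPAD by 2-fold or more and 2 (4.0%) lower by as much. Over all 15626 detected genes the same sizes were met by 16.3% and 14.1%. The median log2 difference was 0.42 for the members and 0.06 for all detected genes. Scaling to the spike-in controls lowered every measured difference by 0.84 and the median of all genes to -0.77, after which 7 members were higher by 2-fold or more and 7 (Hspb2, Hspb6, Hspb7, Bag2, Fkbp4, Cct5 and Cct6a) lower. The share of higher genes among all genes past 2-fold was 53.6%, and 14.4% with that scaling. The 7 members each way with that scaling are 14.0% of the detected ones, against 6.44% higher and 38.3% lower over all genes.

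The 14 higher members came from several roles: Hspa1a of the Hsp70 family, Hspa4l and Hsph1 of the Hsp110 family, Hsp90aa1, the small heat shock genes Hspb1, Hspb8 and Cryab, 6 J protein genes and Bag3. Hspa1a stood 161-fold apart, 9 of the others between 3-fold and 10-fold, and 4 between 2-fold and 3-fold. All 8 chaperonin CCT subunits, both mitochondrial chaperonin genes and both heat shock factors lay within 2-fold, although Cct5 and Cct6a passed it downward with spike-in scaling. At the main scaling, 25 of the 50 detected members had a log2 difference smaller than 0.5 in either direction. In the plot of signals by gene, wide gaps stand beside many narrow ones.

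**Figure D1:**
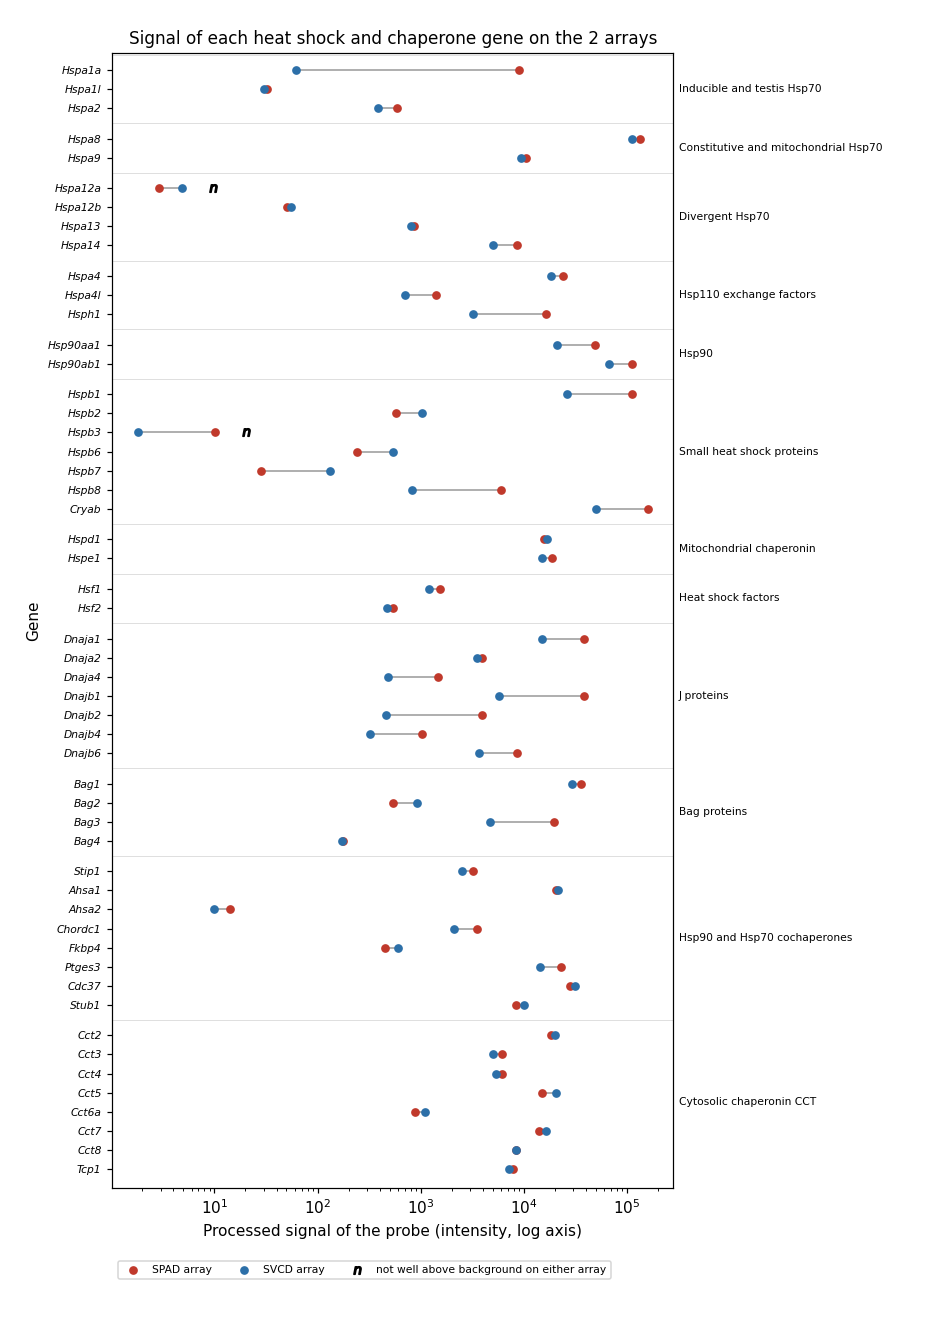
Processed signal (intensity, log axis) of the probe standing for each of the 52 matched members, in SPAD (red) and SVCD (blue), grouped by role, with n marking genes not well above background on either array. Hspa1a spans 9049.9 in SPAD and 61.4 in SVCD, whereas the points of the CCT subunits nearly coincide. Each line joins 1 probe on 2 arrays, 1 array per group.

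The promoters of 6 members are printed as examples of where the element lies. They were picked because they hold a match, 4 of them also for a difference past 2-fold, so they do not show how matches and differences go together. All come from RefSeq (build GRCm38.p6), run from 250 bases before to 50 bases after the annotated start, and are written 5′ to 3′ along the gene. Capitals mark matches to a 2-unit element, GAANNTTC, or to a 3-unit element, in which GAA and TTC alternate with 2 bases between units. Both patterns read the same on either strand, and a 2-unit match can lie inside a 3-unit one.

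Hspa1a, chr17:34972107-34972406, minus strand: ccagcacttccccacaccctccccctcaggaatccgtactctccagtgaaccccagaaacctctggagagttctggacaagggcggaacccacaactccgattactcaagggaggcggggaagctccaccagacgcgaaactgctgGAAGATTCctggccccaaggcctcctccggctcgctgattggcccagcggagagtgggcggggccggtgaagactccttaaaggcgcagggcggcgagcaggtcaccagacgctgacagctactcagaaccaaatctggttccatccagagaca
Hspb8, chr5:116422815-116423114, minus strand: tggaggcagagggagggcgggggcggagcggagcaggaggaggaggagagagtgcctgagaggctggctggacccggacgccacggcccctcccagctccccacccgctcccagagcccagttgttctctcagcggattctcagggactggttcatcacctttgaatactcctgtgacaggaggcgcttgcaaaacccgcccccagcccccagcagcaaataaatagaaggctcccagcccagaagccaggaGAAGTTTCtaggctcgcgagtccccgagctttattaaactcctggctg
Hsph1, chr5:149636266-149636565, minus strand: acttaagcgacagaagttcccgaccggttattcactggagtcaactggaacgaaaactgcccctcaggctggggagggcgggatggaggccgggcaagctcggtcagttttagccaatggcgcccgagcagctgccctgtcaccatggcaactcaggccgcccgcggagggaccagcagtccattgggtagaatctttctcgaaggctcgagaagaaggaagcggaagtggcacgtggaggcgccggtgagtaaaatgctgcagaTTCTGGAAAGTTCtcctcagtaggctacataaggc
Hspb1, chr5:135887669-135887968, plus strand: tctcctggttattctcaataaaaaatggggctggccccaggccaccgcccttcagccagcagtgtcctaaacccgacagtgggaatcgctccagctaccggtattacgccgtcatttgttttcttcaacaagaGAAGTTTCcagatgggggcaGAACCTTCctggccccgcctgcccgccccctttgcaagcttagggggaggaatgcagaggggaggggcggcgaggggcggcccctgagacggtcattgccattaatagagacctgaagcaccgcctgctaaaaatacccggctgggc
Chordc1, chr9:18292017-18292316, plus strand: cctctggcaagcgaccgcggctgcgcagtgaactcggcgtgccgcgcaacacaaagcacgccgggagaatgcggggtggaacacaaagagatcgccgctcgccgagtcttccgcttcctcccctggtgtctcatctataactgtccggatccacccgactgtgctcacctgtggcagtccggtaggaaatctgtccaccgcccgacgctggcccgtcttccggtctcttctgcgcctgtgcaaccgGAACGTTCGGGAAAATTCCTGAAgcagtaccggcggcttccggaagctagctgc
Hspe1, chr1:55087898-55088197, plus strand: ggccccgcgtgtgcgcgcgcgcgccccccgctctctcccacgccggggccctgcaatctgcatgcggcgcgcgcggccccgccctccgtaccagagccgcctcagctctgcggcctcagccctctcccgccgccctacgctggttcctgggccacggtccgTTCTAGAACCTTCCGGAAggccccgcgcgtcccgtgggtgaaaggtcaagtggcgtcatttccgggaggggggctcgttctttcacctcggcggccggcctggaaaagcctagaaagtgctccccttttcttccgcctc

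The first 4 of these genes were higher in SPAD by 2-fold or more and the last 2, which carry the longest runs of units among the 6, were not. Positions count from the start, whose base is 1, with negative values before it. Hspa1a has 1 match, a 2-unit element from -104 to -97. In Hspb1 there are 2 such matches, and in Hspb8 there is 1 just past the start. Hsph1 has a 3-unit element from 16 to 28. Chordc1 holds overlapping 3-unit matches from -4 to 19. The Hspe1 sequence holds 4 alternating units from -89 to -72, and the same stretch, read on the other strand, lies in front of Hspd1.

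Of the 54 members, 44 had a promoter in the RefSeq table. A 2-unit element was found in 17 of them (38.6%), against 9.04% of all 27025 genes with an entry, and a 3-unit element in 5 (11.4%), against 0.662%. Counted by promoter instead of by gene, 7.86% of all 32851 promoters held the 2-unit and 0.603% the 3-unit pattern. Among detected members, 8 of the 15 with a 2-unit element were higher in SPAD by 2-fold or more (median log2 difference 1.35), compared with 4 of the 25 without (median 0.32). The 4 without are Dnajb1, Dnajb2, Dnajb4 and Hspa4l, and Cryab and Hsp90aa1 had no entry. Among genes outside the members, 143 of 909 detected ones with a 2-unit element (15.7%) were higher by 2-fold or more and 148 (16.3%) lower. For the 3-unit element both counts were 9 of 68 (13.2%). A match describes letters in this window only, and no binding was measured.

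**Figure D2:**
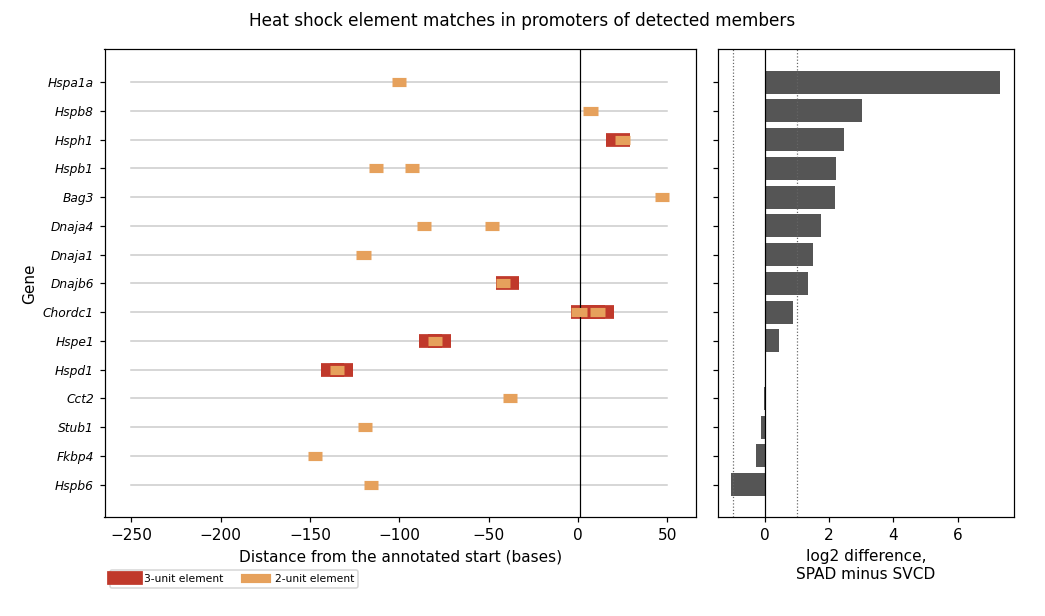
Left, positions of 2-unit (orange) and 3-unit (red) heat shock elements relative to the annotated start, in bases, for the detected members with a match, taking the first annotated start that holds one. Right, log2 difference of the same genes, SPAD minus SVCD, with dotted lines at 2-fold. The 8 genes at the top are past 2-fold, while Chordc1, Hspe1 and Hspd1, with 3-unit matches, are not.

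Hspa1a, the major stress-inducible Hsp70, was the Hsp70 gene past 2-fold on its brightest probe, while Hspa8 passed it on its dimmer probes alone. The Hspa1a probe had a signal of 9049.9 in SPAD and 61.4 in SVCD, a log2 difference of 7.33 ± 0.11 (161-fold). This was the fourth highest value among all genes well above background on both arrays. The SVCD signal was dim. It is background-subtracted, so the median local background of 28 is not on its scale. With the normexp background correction, which used an offset of 50, the difference was 6.22. Hspa1b, its neighbour on chromosome 17, encodes nearly the same protein and has a promoter identical to that of Hspa1a at 296 of 300 positions, so the Hspa1a probe may also read Hspa1b transcripts.

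Hspa1l, the testis-enriched gene that lies next to Hspa1a on the other side, had signals of 32.1 in SPAD and 30.0 in SVCD (log2 0.23 ± 0.50). No gap like that of Hspa1a was read for this neighbour, but its probe was dim on both arrays. Hspa2, also best known from the testis, had signals of 595 in SPAD and 384 in SVCD and a difference of 0.76 ± 0.09, or -0.08 with spike-in scaling.

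Hspa8, the constitutive Hsp70 of nearly all cells, was read by 3 probes that disagreed. The brightest, which stands for the gene here, had signals of 133240 in SPAD and 113616 in SVCD, a log2 difference of 0.36 ± 0.08. The second had 112554 in SPAD and 48537 in SVCD (1.34), and the third 36790 in SPAD and 9639 in SVCD (2.06). All 3 were higher in SPAD at the main scaling, but only the dimmer 2 passed 2-fold, and the brightest turned to -0.48 with spike-in scaling. No spot was saturated, and pseudogene copies of Hspa8 or other transcripts bound by a probe were not tested.

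The mitochondrial Hsp70 gene Hspa9 had signals of 10525 in SPAD and 9390 in SVCD (0.29 ± 0.08). Among the more distant relatives, Hspa14, which acts at the ribosome, had signals of 8623 in SPAD and 5028 in SVCD, a difference of 0.90 ± 0.08. Hspa13 had 866 in SPAD and 810 in SVCD (0.22, and -0.00 on a dimmer probe), and Hspa12b 50.1 in SPAD and 54.8 in SVCD (-0.00 ± 0.37). None of these relatives was past 2-fold in either direction, and with spike-in scaling Hspa14 stood at 0.06 and the others from -0.84 to -0.55.

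The Hsp110 proteins, which exchange nucleotide on Hsp70 and help it take aggregates apart, are encoded by 3 members. Hsph1, the stress-inducible member, had signals of 16634 in SPAD and 3259 in SVCD, 5.57-fold higher in SPAD (2.48 ± 0.08), and its other probe gave the same value, 2.48, from signals of 7105 in SPAD and 1390 in SVCD. Hspa4l, abundant in testis, had 1407 in SPAD and 698 in SVCD (1.14 ± 0.08), a 2.20-fold gap that was 0.98 on the log2 scale with normexp and 0.30 with spike-in scaling.

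Hspa4, the third member, could not be given a direction. Its brightest probe had signals of 24313 in SPAD and 18560 in SVCD (0.51 ± 0.08). The other two had 988 in SPAD and 2351 in SVCD (-1.12 ± 0.08), and 322 in SPAD and 684 in SVCD (-0.96 ± 0.09). All 3 carry the same transcript accession, and the gaps between them are many times the spot error.

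J protein genes were the class with the largest share past 2-fold, 6 of the 7 matched (median log2 difference 1.76). Dnajb2, which carries ubiquitin-binding motifs and is best known from neurons, had signals of 3974 in SPAD and 458 in SVCD, 9.46-fold higher in SPAD (3.24 ± 0.09). A probe for another of its transcripts had 320 in SPAD and 27.6 in SVCD (3.66 ± 0.36). Dnajb1, the main inducible partner of Hsp70, had 38315 in SPAD and 5807 in SVCD, 7.20-fold higher in SPAD (2.85 ± 0.08). With spike-in scaling these genes still stood at 2.40 and 2.01.

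Dnajb4, a close relative of Dnajb1, had signals of 1042 in SPAD and 322 in SVCD (1.82 ± 0.09). Dnaja4 had 1485 in SPAD and 479 in SVCD (1.76 ± 0.09), and its second, dim probe gave 1.74. Dnajb6, which suppresses aggregation of polyglutamine proteins, was read by 4 probes for 2 transcripts, with differences from 1.04 to 1.35. Across these probes the order of the arrays was the same, SPAD above SVCD, and it held with spike-in scaling for the probe that stands for each gene, at 0.98, 0.92 and 0.51.

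Dnaja1, a farnesylated partner of Hsc70, had 38567 in SPAD and 14890 in SVCD on its bright probe (1.50 ± 0.08). Its other probe had only 40.7 in SPAD and 45.2 in SVCD (-0.03 ± 0.50), so the mean over both was 0.74, under 2-fold, as was the bright probe with spike-in scaling (0.66). Dnaja2, a constitutive relative, was within 2-fold, with 3968 in SPAD and 3500 in SVCD (0.31 ± 0.08) on one probe and 456 in SPAD and 569 in SVCD (-0.19 ± 0.09) on the other.

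**Figure D3:**
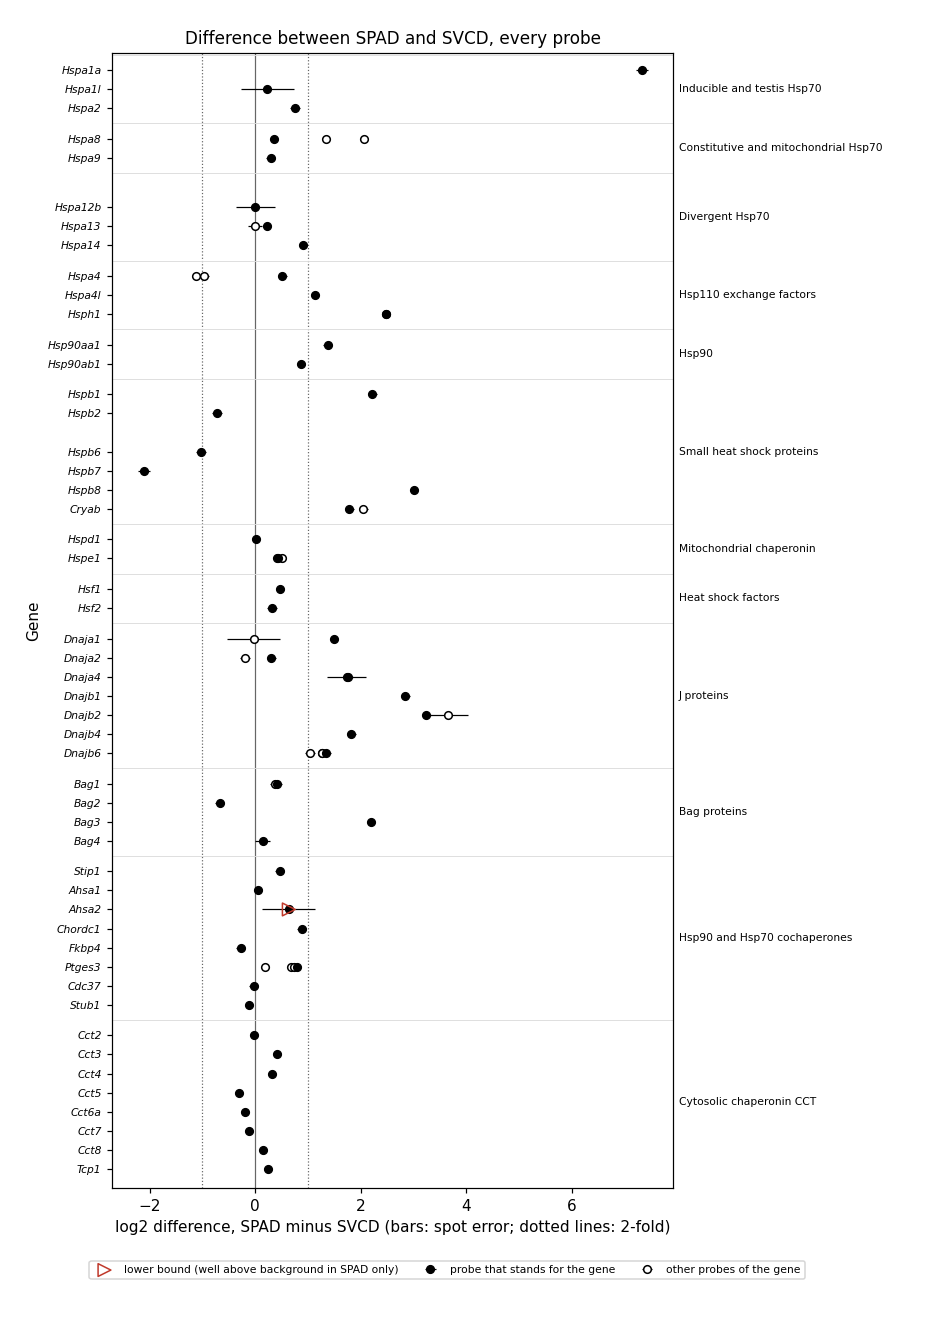
Log2 difference, SPAD minus SVCD, of every probe of the detected members, by role. Filled points are the probes standing for the genes, open points other probes of the same gene, bars the spot error and dotted lines 2-fold; 1 array per group. Most J protein and several small heat shock probes lie right of the 2-fold line, whereas the CCT subunits lie between -0.31 and 0.41, or 0.84 lower with spike-in scaling.

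Of the Bag genes, which couple Hsp70 to release and degradation of clients, Bag3 alone passed 2-fold. Bag3 takes part in chaperone-assisted autophagy together with the Hspb8 protein, and had signals of 19641 in SPAD and 4694 in SVCD, 4.56-fold higher in SPAD (2.19 ± 0.08). Bag1, which links Hsp70 to the proteasome, had 36369 in SPAD and 29633 in SVCD (0.42 ± 0.08, and 0.37 on its other probe). Bag4 was nearly level, with 176 in SPAD and 174 in SVCD (0.14 ± 0.14). Bag2, an inhibitor of Stub1, was lower in SPAD, with 534 against 930.4 in SVCD (-0.68 ± 0.09), and passed 2-fold only with spike-in scaling (-1.52).

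Small heat shock protein genes took both directions, from -2.11 to 3.01. Hspb8, the partner of Bag3, had signals of 6092 in SPAD and 822 in SVCD, 8.08-fold higher in SPAD (3.01 ± 0.08). Hspb1, the widely expressed Hsp27 homologue, had 112162 in SPAD and 26245 in SVCD, 4.66-fold higher in SPAD (2.22 ± 0.08). Cryab, the alpha B crystallin of lens and muscle, had 159623 in SPAD and 50515 in SVCD on its brighter probe (1.79 ± 0.08) and 27628 in SPAD and 7268 in SVCD on the other (2.05 ± 0.08). With spike-in scaling Cryab stood at 0.95, and Hspb8 and Hspb1 remained past 2-fold.

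Hspb2, Hspb6 and Hspb7 were lower in SPAD, the opposite direction to Hspb1, Hspb8 and Cryab. Hspb7, known from heart, was printed in 10 spots on each array. Before scaling, its spots ranged from 22.1 to 30.2 (median 28.9) in SPAD and from 115 to 141 (median 135) in SVCD. These ranges show scatter between prints of 1 probe, not between samples. Hspb7 was 4.32-fold lower in SPAD (-2.11 ± 0.12). That gap was -1.01 with normexp. Hspb6, known from smooth and striated muscle, had 241 in SPAD and 539 in SVCD (-1.04 ± 0.09), at the edge of 2-fold and inside it with normexp (-0.89). Hspb2, which lies beside Cryab on chromosome 9, had 578 in SPAD and 1041 in SVCD (-0.72 ± 0.09), the opposite direction to its neighbour.

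Of 10 smooth muscle and myofibroblast markers, 6 were lower in SPAD by 2-fold or more and 0 higher. Summed over the 10 probes, their signal was 18283 in SPAD and 219791 in SVCD, with Acta2 at 5037 in SPAD and 75016 in SVCD. Only Lmod1 was not well above background in SPAD, whereas Myh11 differed by 0.55. Of 13 skeletal and cardiac muscle markers, Myod1, Myog, Myh4, Actc1 and Ckm stayed near background on both arrays, and of the other 8, 2 were higher in SPAD by 2-fold or more and 3 lower (summed signal of all 13: 363 in SPAD and 2556 in SVCD). The 2 higher, Myh3 and Mb, were well above background in SPAD alone, at dim signals of 32.7 and 18.5. Acta1 made up most of the SVCD sum, with 131 in SPAD and 2040 in SVCD. The part of muscle-like cells in the values of the small heat shock genes was not tested.

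Of the cytosolic Hsp90 genes, the inducible Hsp90aa1 had signals of 49629 in SPAD and 20916 in SVCD, 2.59-fold higher in SPAD (1.37 ± 0.08). The constitutive Hsp90ab1 had 111756 in SPAD and 66952 in SVCD (0.86 ± 0.08). With spike-in scaling both were within 2-fold, at 0.53 and 0.02.

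None of the 8 cochaperone genes of Hsp90 and Hsp70 was past 2-fold at the main scaling. The highest was Chordc1, a stress-induced Hsp90 partner, with 3522 in SPAD and 2090 in SVCD (0.88 ± 0.08). Ptges3, the p23 cochaperone that closes the Hsp90 cycle, had 22906 in SPAD and 14436 in SVCD (0.79 ± 0.08), with its other probes between 0.19 and 0.73. Stip1, the Hop protein that bridges Hsp70 and Hsp90, had 3193 in SPAD and 2532 in SVCD (0.46 ± 0.08).

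With spike-in scaling these 3 stood at 0.04, -0.05 and -0.38. Ahsa1, which stimulates the Hsp90 ATPase, had 20392 in SPAD and 21457 in SVCD (0.05 ± 0.08), and the kinase adaptor Cdc37 had 28254 in SPAD and 31485 in SVCD (-0.03 ± 0.08). Stub1, the ubiquitin ligase CHIP, had 8483 in SPAD and 10010.1 in SVCD (-0.11 ± 0.08), and the immunophilin Fkbp4 453 in SPAD and 598 in SVCD (-0.27 ± 0.09). With spike-in scaling these 4 stood at -0.79, -0.87, -0.95 and -1.11. Ahsa2 was dim, at 14.0 in SPAD and 9.83 in SVCD, and 1.55-fold higher in SPAD at the main scaling (0.64 ± 0.50). With spike-in scaling its value was 0, where values of genes detected on 1 array are cut off, so no direction can be read.

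The chaperonin genes lay close to the median of all genes. CCT, which folds actin and tubulin, is built from the products of Tcp1 and the Cct genes. Its 8 members lay between -0.31 and 0.41 with a median of 0.06, that of all detected genes, and 4 of 8 were above 0, or 0 of 8 with spike-in scaling. At the ends, Cct5 had signals of 15042 in SPAD and 20384 in SVCD (-0.31 ± 0.08), and Cct3 had 6106 in SPAD and 5012 in SVCD (0.41 ± 0.08). Between them stood Cct6a (-0.20), Cct7 (-0.11), Cct2 (-0.02), Cct8 (0.14), Tcp1 (0.25) and Cct4 (0.31). With spike-in scaling Cct5 stood at -1.15 and Cct6a at -1.04.

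Hspd1 and Hspe1 encode the mitochondrial chaperonin Hsp60 and its lid Hsp10 and are transcribed away from each other. Hspd1 had 15687 in SPAD and 16930 in SVCD (0.02 ± 0.08). Hspe1 had 18651 in SPAD and 15079 in SVCD (0.43 ± 0.08), with other probes at 0.42 and 0.50. With spike-in scaling both were negative, at -0.82 and -0.41.

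The heat shock factors themselves differed little. Hsf1, the master regulator of the heat shock response, had signals of 1551 in SPAD and 1219 in SVCD (0.47 ± 0.08), and Hsf2, its relative, 535 in SPAD and 469 in SVCD (0.32 ± 0.09). Both turned negative with spike-in scaling, at -0.37 and -0.52. Activity of the factors was not measured.

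Other chaperone genes were compared through a list of 76 cochaperones and folding factors outside the members. Of its 71 detected genes, 5 (7.04%) were higher in SPAD by 2-fold or more, 3 (4.23%) lower, and the median was -0.02, below the 0.42 of the members. Sqstm1, the autophagy receptor p62, had signals of 37810 in SPAD and 4134 in SVCD, 9.98-fold higher in SPAD. The testis gene Cct6b was 3.73-fold higher, on dim signals of 86.2 in SPAD and 25.2 in SVCD. Dnajc9, a histone chaperone active in dividing cells, was 3.72-fold lower in SPAD, and Dnajc12 2.56-fold lower. Also past 2-fold were the Hsp70 cofactor St13 (2.55-fold higher), the polyubiquitin gene Ubb (2.33-fold higher) and the collagen chaperone Serpinh1 (2.04-fold lower), which were named after their values were seen. With spike-in scaling 2 genes of this list were higher and 24 lower, while over all genes 6.44% were higher and 38.3% lower.

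Endoplasmic reticulum chaperones and proteasome genes, the protein quality control lists most like the members, had other profiles. Of 21 detected reticulum genes, 4 were higher in SPAD by 2-fold or more and 0 lower, with a median of -0.14. These 4 were the stress regulators Ddit3 (8.14-fold) and Atf4 (2.59-fold), Dnajb9 (5.92-fold) and the disulfide isomerase P4hb (2.42-fold). Hspa5, the reticulum Hsp70, differed by 0.43 and is counted among the other cochaperones too. Dnajb11 was counted at -0.47 on its brightest probe, whereas its other probe gave 3.14. The 31 proteasome subunits lay between 0.05 and 1.11 with a median of 0.60, and Psmd4 and Psmd14, both 2.16-fold higher, were the 2 past 2-fold. With spike-in scaling 2 reticulum genes were higher by 2-fold or more and 10 lower, while 0 proteasome subunits were past 2-fold in either direction. Over all genes the shares with that scaling were 6.44% higher and 38.3% lower. Differences between these lists and the members were not tested.

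A list of immediate early and other stress-response genes is given beside the heat shock genes because both lists respond to stress. Many of its genes, but not all, respond within minutes to handling and growth signals. Of 21 detected, 9 were higher in SPAD by 2-fold or more and 3 (Egr2, Klf2 and Fos) lower, with a median of 0.37. Gadd45a was 9.44-fold, Fosl1 5.64-fold, Ier5 4.83-fold and Egr1 4.0-fold higher in SPAD. The other probe of Ier5 gave a smaller log2 difference, 1.21 against 2.27. Fos was lower, with 701 in SPAD and 2051 in SVCD, and Atf3 differed by -0.03. With spike-in scaling 4 of these genes were higher and 4 lower, beside 6.44% higher and 38.3% lower over all genes. The part of handling or culture stress in the chaperone values was not tested.

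Markers of cell types also differed. Mature adipocyte markers were higher in SPAD by 2-fold or more in 10 of 10 genes (summed signal 130713 in SPAD and 32114 in SVCD), and endothelial markers in 9 of 10 (21238 in SPAD and 5479 in SVCD). Lower in SPAD by 2-fold or more were 9 of 10 proliferation markers (10086 in SPAD and 39794 in SVCD), 6 of 9 detected macrophage markers (121432 in SPAD and 183022 in SVCD) and 5 of 8 detected mesothelial markers (1573 in SPAD and 17503 in SVCD). The brightest probes weigh most in such sums. The macrophage marker Lyz2 had 98429 in SPAD and 84459 in SVCD, a log2 difference of 0.35 in the other direction. The adipocyte marker Fabp4 had 108495 in SPAD and 31257 in SVCD. These counts use the brightest probe of each gene. For the adipocyte marker Cidec the other probe gave a log2 difference of -0.004 against 3.59. For Kdr, the endothelial marker that was not higher, it gave -1.94 against -0.49. Gpm6a, a mesothelial marker, stayed near background on both. How much of any chaperone difference goes with these cell types was not tested.

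**Figure D4:**
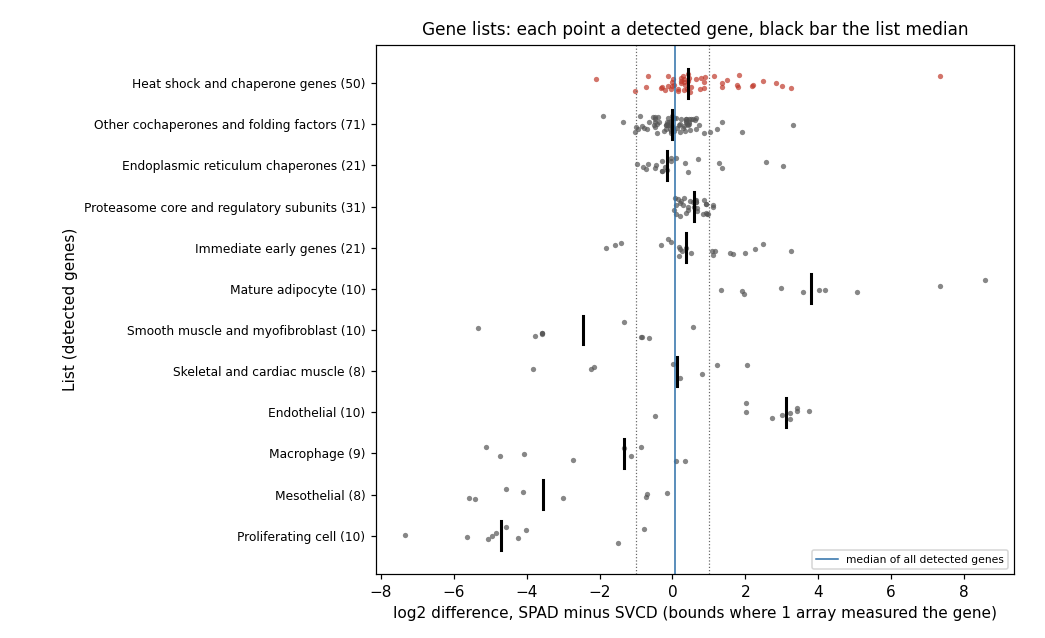
Log2 difference, SPAD minus SVCD, of the detected genes of each list, with bounds for genes well above background on 1 array. Each point is a gene, black bars are list medians, the blue line the median of all detected genes (0.06) and dotted lines 2-fold. Several heat shock and chaperone genes (red) lie right of 2-fold while the list's median is 0.42, or -0.42 with spike-in scaling; 1 array per group.

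Agreement between probes could be read for 13 members with several probes. In 5 of them, Hspa8, Hspa13, Hspa4, Dnaja1 and Dnaja2, the probes spread over at least 1 log2 unit or took different signs. Of the 14 members past 2-fold upward, 6 had several probes, and in 5 of these each probe passed 2-fold: Hsph1, Cryab, Dnaja4, Dnajb2 and Dnajb6. The other 8 rest on 1 probe each, including Hspa1a, Dnajb1, Hspb8, Hspb1 and Bag3. Hspa1a, Hsph1, Hspb1, Hspb8, Dnajb1, Dnajb2 and Bag3 were past 2-fold under all 9 processing alternatives tried. For those with 1 probe, averages over probes and the probe filters returned the same value by construction. The authors' deposited table differed by a small constant only.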

How the data were processed

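The submitters' processing notes name Agilent Feature Extraction 10.7.3.1 as the quantification tool. Scanner files, as deposited, hold each spot's processed intensity, background-subtracted on a linear scale, per the file headers, which also name mm9 as the build of the array design. The authors also deposited a log2 table, centred per probe, whose columns are opposite in sign (medians 0.16 for SPAD and -0.16 for SVCD). For probes with 1 spot its differences equalled those used here but for a constant of -0.002. Its levels cannot be read.

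Of 44397 spots per array, 1377 control spots and 73 (SPAD) and 85 (SVCD) outlier spots were left out. Repeat spots were averaged, which left 39425 probes, of which 64.5% (SPAD) and 65.6% (SVCD) were well above background. Names came from RefSeq (27506 probes matched). Where a gene had several probes, the one brightest on average over both arrays stands for it. A gene detected on 1 array was set against the higher of its own signal on the other array and that array's lowest well-detected signal. Such a value was cut off at 0 where its direction would have turned. Spot error was pooled in 6 signal bins. Normexp used limma 3.58.1 on median signals, since mean signals are not in the columns. The calculation was tested on simulated data. The number of arrays, 1 per group, limits precision. The members, lists and alternatives were chosen with earlier results of these data known. All members are accounted for, and up to 4 genes of each other list with the largest differences are named. Further genes of these lists, such as Hspa5, Fos, Atf3, Egr2, Klf2 and single markers, were named after their values were seen. One gene counted among the other cochaperones is not reported here by name.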

Additional observations from a re-analysis of the deposited data

How the results depend on the processing

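Directions and sizes were recomputed under 9 alternatives to scaling, background correction, probe filter and choice of probe. Of the 14 members at least 2-fold higher in SPAD, 7 stayed past 2-fold under each of the 9, and all 14 stayed above 0. Some alternatives could not move a gene: with 1 probe detected on both arrays, probe averages and probe filters return the same value. Spike-in scaling moved the most: 7 members were then at least 2-fold higher and 7 lower, the median of the members was -0.42, and 0 CCT subunits were above 0. It rests on 8 spike-in probes whose unscaled log2 differences ran from 0.65 to 1.76 with a median of 0.71. Of all genes, 6.44% were then higher and 38.3% lower by 2-fold or more. Quantile normalization gave a median of 0.30. Of 58 values and counts recomputed, 56 moved by more than their spot error or 1.5 times with spike-in scaling, 25 with quantile normalization, 10 with normexp, 9 with a mean or median over probes, 1 with no filter, and 0 with median scaling, genes detected on both arrays or the authors' deposited table. Normexp, with its offset of 50, left 1 member at least 2-fold lower, Hspb7, and 9.49% of all genes higher and 9.15% lower. With a mean over probes, Hspa8 stood at 1.25, Dnaja1 at 0.74 and Hspa4 at -0.52. Relative to the median of all genes, the members' median was 0.36 higher as reported, 0.34 higher with spike-in scaling and 0.16 higher with no filter on dim probes, the lowest of the 9 alternatives. The cause of these shifts was not tested. No paired analysis was possible because each group has 1 array, and for the same reason no array could be left out. Dim signals, as for Hspa1a in SVCD and Hspb7 in SPAD, limit how well the sizes of their gaps are known.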
